A study of Canis lupus familiaris with 12 samples.

Results

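Septins are a family of GTP-binding cytoskeletal proteins, and RNASeq of MDCKII, a dog kidney line of epithelial cells, measured the mRNA of 8 septin genes. They were chosen as the rows whose name is a number followed by -Sep, the form that a spreadsheet gives to symbols such as SEPT2, and names that end in -Mar were left out. This rule gave 8 of the 13672 genes in the table, and it used no measured value. The rows are listed as 2-Sep, 5-Sep, 6-Sep, 7-Sep, 8-Sep, 9-Sep, 10-Sep, and 11-Sep. They stand next to each other between SEPSECS and SERAC1 and are in alphabetical order once they are read as SEPT10, SEPT11, SEPT2, and so on, so they are named here by those symbols (current symbols SEPTIN2 to SEPTIN11). RefSeq names 13 dog septin genes, of which SEPTIN1, SEPTIN3, SEPTIN4, SEPTIN12, and SEPTIN14 have no row under a septin name and were not analysed here.

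The libraries came from WT cells, CGN-KO cells (line 1G8), CGNL1-KO cells (line 22), and CGN_CGNL1-dKO cells (line 21D3, called double-KO), with 3 libraries for each of the 4 genotypes. CGN encodes cingulin and CGNL1 encodes paracingulin, related coiled-coil proteins of the cytoplasmic side of epithelial junctions. All cells were MDCKII cells and none was treated. Each KO genotype was a single line, so the loss of a gene and the other properties of its line cannot be told apart. The labels do not say whether libraries of a genotype came from separate cultures, so the p-values measure the spread between these libraries only. The comparisons ask whether the mRNA levels of septins differ between WT cells and cells without cingulin, paracingulin, or both.

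Septin proteins join into heteromeric rods, and the rods join end to end into filaments and rings that bind actin, myosin, microtubules, and membranes. The family falls into classes that take fixed places in a rod. SEPT2 and SEPT5 belong to the SEPT2 class, and SEPT6, SEPT8, SEPT10, and SEPT11 belong to the SEPT6 class, whose members can replace one another. SEPT7 is alone in its class and is part of hexameric and octameric rods, whereas SEPT9 is found in octamers only. In epithelial cells septin filaments are known to line microtubules and actin bundles.

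The values are read counts scaled to a library of 1000000 reads (CPM), with library sizes adjusted by the TMM method. The number of reads behind each value could be recovered, and libraries held 16837532 to 30086076 reads. Counts for 1 septin in 1 library ranged from 552 reads (SEPT5, WT replicate 2) to 14371 reads (SEPT2, CGN-KO replicate 1). The coefficient of variation of a septin within a genotype was between 0.873% and 10.8%, with a median of 4.87%. CGN was between 199 and 233 CPM in WT cells, 47.0 and 56.5 CPM in CGN-KO cells, and 39.7 and 45.3 CPM in double-KO cells. CGNL1 was between 7.74 and 12.3 CPM in WT cells, 1.76 and 3.02 CPM in CGNL1-KO cells, and 1.11 and 1.76 CPM in double-KO cells. Each targeted gene was thus lower in the lines named for it. CGNL1 was also lower in CGN-KO cells, where it was between 5.04 and 6.92 CPM. Of the epithelial markers 6 of 6 were listed (CDH1, EPCAM, KRT8, KRT18, OCLN, and TJP1), with a summed level of 5176 to 5661 CPM. Fibroblast markers were listed for 0 of 4 genes. KDR, at 0.0969 to 2.41 CPM, was the only endothelial marker listed of 3, and CD68, at 0.560 to 1.34 CPM, the only leukocyte marker listed of 2.

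Some septins differed between the KO lines and WT cells by more than the spread between libraries, with log2 differences between -0.36 and 0.32. SEPT7 was called lower than in WT cells in all 3 KO lines, and SEPT5 was called higher in all 3. SEPT2 and SEPT8 were called higher in CGN-KO and double-KO cells. In CGNL1-KO cells they were higher by 0.16 and 0.18 but missed the threshold. The calls of SEPT7 and SEPT5 in CGNL1-KO cells were lost in 3 and 6 of 20 alternative analyses. Those of SEPT2 in CGN-KO and double-KO cells were lost in 4 and 1, and that of SEPT8 in double-KO cells in 9. SEPT6, SEPT9, SEPT10, and SEPT11 passed the test in none of the 3 comparisons with WT cells. The test was limma on log2(CPM + 1) with all 4 genotypes in 1 fit, and a gene was called at a Benjamini-Hochberg adjusted p below 0.05 over 12650 genes. These genes exceeded 1 CPM in 3 or more libraries, as all 8 septins did. Of all genes tested 19.0%, 10.3%, and 26.3% were called in CGN-KO, CGNL1-KO, and double-KO cells. Differences are on this log2 scale, KO minus WT. In bulk RNA, fewer cells that express a gene and less of its mRNA per cell cannot be told apart.

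**Figure D1:**
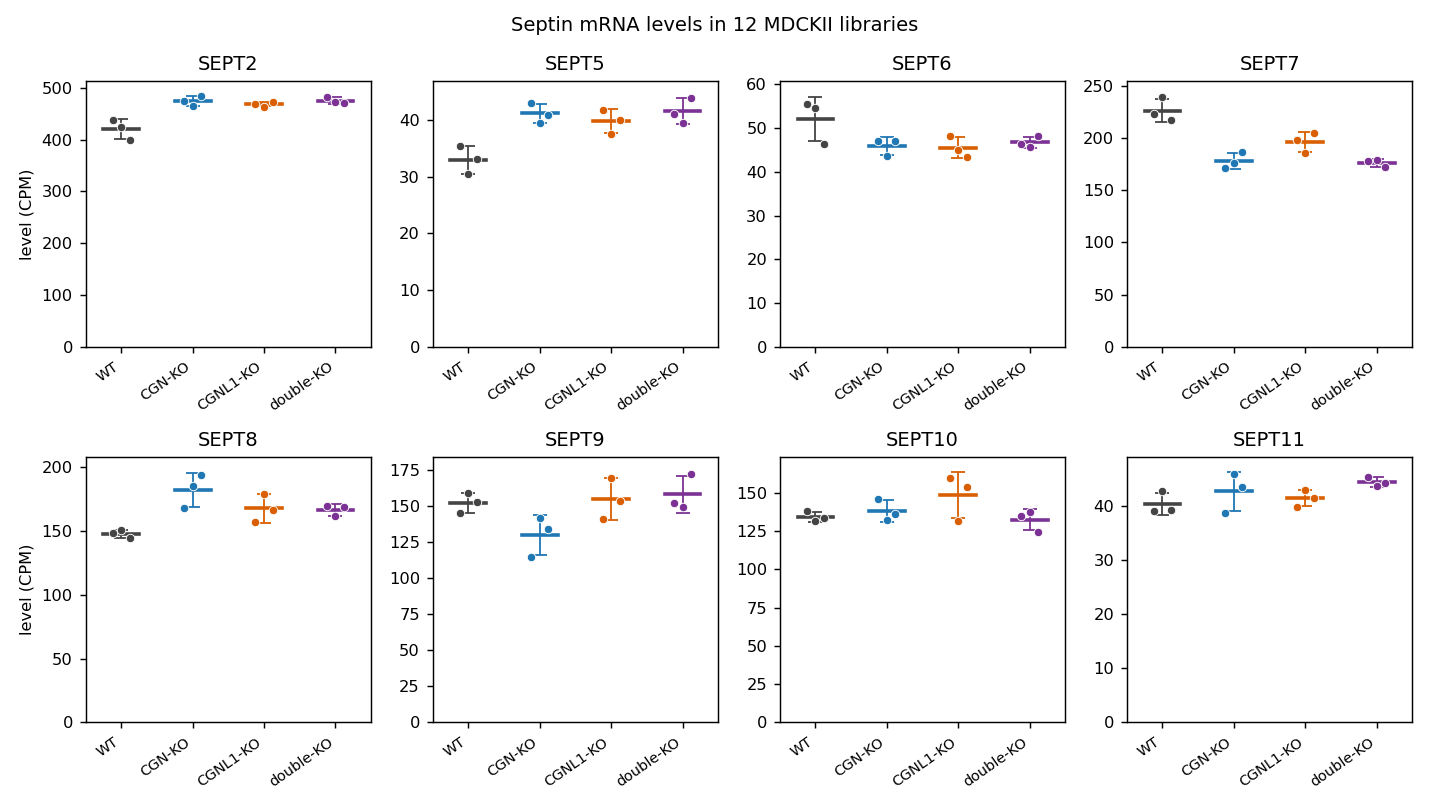
Level of each of the 8 septin genes in CPM (y axes start at 0) in the 12 libraries by genotype. Points are libraries, and horizontal lines and bars are the mean and SD of 3 libraries. All KO libraries lie below the WT libraries for SEPT7 and above them for SEPT2, SEPT5, and SEPT8.

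SEPT7, the only member of its class and a part of every canonical rod, was at 223, 239, and 217 CPM in the WT libraries. It was at 172, 176, and 187 CPM in CGN-KO cells, at 198, 186, and 204 CPM in CGNL1-KO cells, and at 178, 179, and 172 CPM in double-KO cells. All 9 KO libraries lay below all 3 WT libraries. The means were 226 ± 11.3 CPM for WT, 178 ± 7.85 CPM for CGN-KO, 196 ± 9.30 CPM for CGNL1-KO, and 176 ± 3.57 CPM for double-KO cells (SD, n = 3 libraries each). SEPT7 fell by 0.34 in CGN-KO cells (SE 0.0546, limma adjusted p = 0.000289), and its CPM + 1 fell by 21.2%. In double-KO cells it fell by 0.36 (SE 0.0546, limma adjusted p = 0.000149). These SEPT7 calls held in all 20 alternative analyses. In CGNL1-KO cells SEPT7 fell by 0.21 (limma adjusted p = 0.0235), and this call was lost in 3 of 20 alternatives, among them the one without WT replicate 2 and the one without CGNL1-KO replicate 2 (highest adjusted p = 0.130). In the order of the means, WT cells were highest, followed by CGNL1-KO, CGN-KO, and double-KO cells. Only the first step of this order, between WT and CGNL1-KO cells, passed the test.

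In the SEPT2 class, SEPT2, a widely expressed septin that lies along actin and microtubules, was at 438, 424, and 400 CPM in WT cells. It was at 474, 464, and 484 CPM in CGN-KO cells, at 469, 464, and 472 CPM in CGNL1-KO cells, and at 482, 473, and 471 CPM in double-KO cells. All KO libraries were above all WT libraries, and the WT libraries were spread more widely (SD 19.4 CPM) than those of any KO line (SD 4.09 to 10.1 CPM). SEPT2 rose by 0.17 in CGN-KO cells (SE 0.0489, limma adjusted p = 0.0197) and by 0.18 in double-KO cells (SE 0.0489, limma adjusted p = 0.0133), differences of 12.8% and 13.1%. The call in CGN-KO cells was lost in 4 of 20 alternatives, those without WT replicate 2 or 3 or CGN-KO replicate 3 (highest adjusted p = 0.0764) and with only these genotypes in the fit (adjusted p = 0.0621), and that in double-KO cells was lost without WT replicate 3 (adjusted p = 0.0557). In CGNL1-KO cells the difference was 0.16 and missed the threshold (limma adjusted p = 0.0549). DESeq2 on the recovered reads called it (adjusted p = 0.00845), as did limma without WT replicate 1 (adjusted p = 0.0445). In the RefSeq annotation the span of SEPT2 overlaps that of HDLBP, which encodes the RNA-binding protein vigilin. HDLBP differed from WT cells by 0.24, 0.22, and 0.24 in CGN-KO, CGNL1-KO, and double-KO cells (limma adjusted p = 0.0245, 0.0590, and 0.0175). Whether the counting used strand was not stated, so reads that the overlap could share cannot be told apart.

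SEPT5, of the same class and known for its part in vesicle release at synapses, was at 35.4, 30.5, and 33.2 CPM in WT cells. It was at 43.0, 39.6, and 41.0 CPM in CGN-KO cells, at 41.9, 37.6, and 40.0 CPM in CGNL1-KO cells, and at 41.2, 39.5, and 44.0 CPM in double-KO cells. Again all KO libraries were above all WT libraries. SEPT5 rose by 0.31 in CGN-KO cells (SE 0.0703, limma adjusted p = 0.00497), by 0.26 in CGNL1-KO cells (SE 0.0703, limma adjusted p = 0.0234), and by 0.32 in double-KO cells (SE 0.0703, limma adjusted p = 0.00281). On the CPM + 1 scale these are levels 24.2%, 20.1%, and 25.2% above WT. The calls in CGN-KO and double-KO cells held in all 20 alternatives, whereas that in CGNL1-KO cells was lost in 6 of 20, including those without WT replicate 2 or 3 and without CGNL1-KO replicate 1 or 3 (highest adjusted p = 0.128). The 3 KO lines differed from one another by at most 0.06 (lowest limma adjusted p = 0.640).

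**Figure D2:**
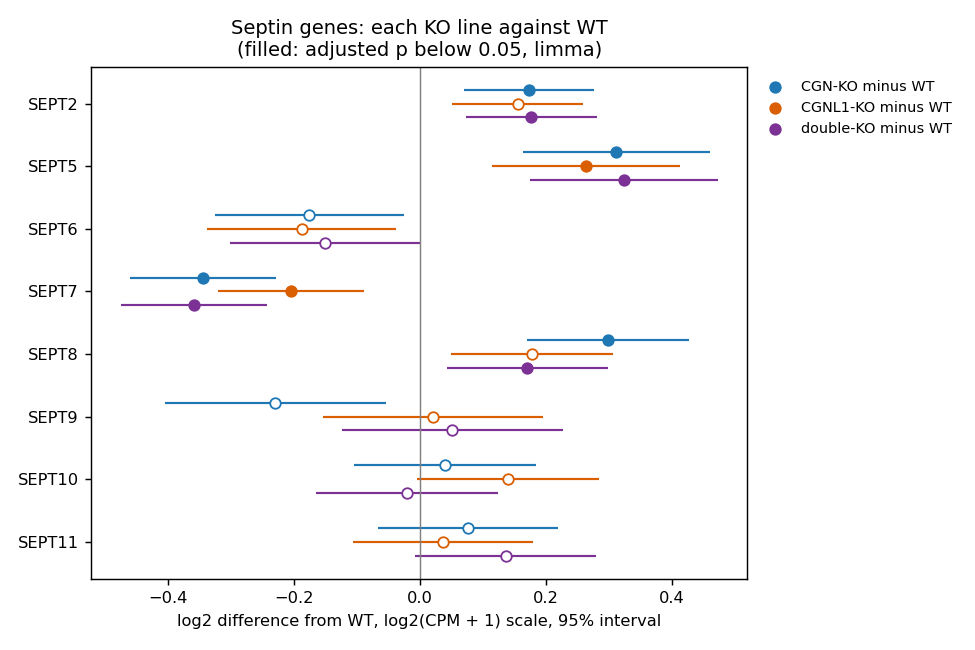
Log2 difference from WT on the log2(CPM + 1) scale (x axis) for each septin gene (y axis) in the 3 KO lines. Points are limma estimates, lines are 95% intervals, and filled points have an adjusted p below 0.05. SEPT7 lies left of 0 in every line, between -0.36 and -0.21, and SEPT5 lies between 0.26 and 0.32.

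In the SEPT6 class, SEPT8 was at 148, 151, and 144 CPM in WT cells. It was at 168, 185, and 194 CPM in CGN-KO cells, at 157, 179, and 167 CPM in CGNL1-KO cells, and at 169, 161, and 169 CPM in double-KO cells. All KO libraries were above all WT libraries, and CGN-KO cells had the highest mean (182 ± 13.3 CPM, against 148 ± 3.21 CPM in WT cells, SD, n = 3). SEPT8 rose by 0.30 in CGN-KO cells (SE 0.0606, limma adjusted p = 0.00229), or 23.0%, and this call held in all 20 alternatives. In double-KO cells it rose by 0.17 (SE 0.0606, limma adjusted p = 0.0477), a call that was lost in 9 of 20 alternatives, including those without each of the WT and each of the double-KO libraries in turn (highest adjusted p = 0.141). The difference in CGNL1-KO cells was 0.18, with a limma adjusted p of 0.0774. It was called without CGN-KO replicate 1 (adjusted p = 0.0417) or without CGNL1-KO replicate 1 (0.22, adjusted p = 0.0284).

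SEPT6, after which the class is named, was at 55.5, 54.5, and 46.4 CPM in WT cells. It was between 43.6 and 47.1 CPM in CGN-KO cells, between 43.4 and 48.2 CPM in CGNL1-KO cells, and between 45.6 and 48.1 CPM in double-KO cells. WT replicate 3 lay among the KO libraries, and the other two WT libraries lay above all of them. The differences of -0.18, -0.19, and -0.15 in CGN-KO, CGNL1-KO, and double-KO cells had limma adjusted p of 0.0958, 0.117, and 0.131. Without WT replicate 3 they were -0.26, -0.27, and -0.23, and the limma adjusted p were 0.0160, 0.0217, and 0.0204. The WT value of SEPT6 thus rests on whether 1 library is included.

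SEPT10 and SEPT11, also of the SEPT6 class, were the members with the smallest differences among genotypes by limma's moderated F test (adjusted p = 0.238 and 0.384). SEPT10 was between 131 and 138 CPM in WT cells and between 125 and 160 CPM in the KO libraries, which overlapped the WT range. Its largest difference from WT was 0.14 in CGNL1-KO cells (95% interval -0.0051 to 0.28, limma adjusted p = 0.240), where the libraries were at 160, 132, and 154 CPM. It was 0.084 without CGNL1-KO replicate 1, and 0.22 without CGNL1-KO replicate 2, where it was called (limma adjusted p = 0.0296). SEPT11 was between 39.1 and 42.7 CPM in WT cells and between 38.7 and 45.9 CPM in the KO libraries. The 3 double-KO libraries, at 45.3, 43.7, and 44.1 CPM, lay above the WT libraries, as for 23.2% of all genes, and the difference of 0.14 (95% interval -0.0073 to 0.28) had a limma adjusted p of 0.154.

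SEPT9, which binds and bundles actin filaments and microtubules, was at 145, 159, and 153 CPM in WT cells. It was at 115, 142, and 134 CPM in CGN-KO cells, at 141, 170, and 154 CPM in CGNL1-KO cells, and at 152, 150, and 173 CPM in double-KO cells. The CGN-KO libraries lay below all WT libraries, as did those of 17.5% of all genes, and below all double-KO libraries, as for 15.5% of all genes. The other two KO lines overlapped WT cells. The difference of -0.23 between CGN-KO and WT cells (SE 0.0825, 95% interval -0.40 to -0.055) missed the threshold, with a limma adjusted p of 0.0630. Without CGN-KO replicate 1 it was -0.14, and it was called without CGN-KO replicate 2, CGNL1-KO replicate 1, or CGNL1-KO replicate 2 (limma adjusted p = 0.0347, 0.0332, and 0.0426). The differences in CGNL1-KO and double-KO cells were 0.02 and 0.05 (limma adjusted p = 0.917 and 0.689, 95% intervals -0.15 to 0.20 and -0.12 to 0.23). RefSeq lists 4 long noncoding RNAs that overlap the span of SEPT9. The span of SEPT8 overlaps a protein-coding gene and a long noncoding RNA, and that of SEPT11 a long noncoding RNA and a pseudogene. As for SEPT2, reads that these overlaps could share cannot be told apart.

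**Figure D3:**
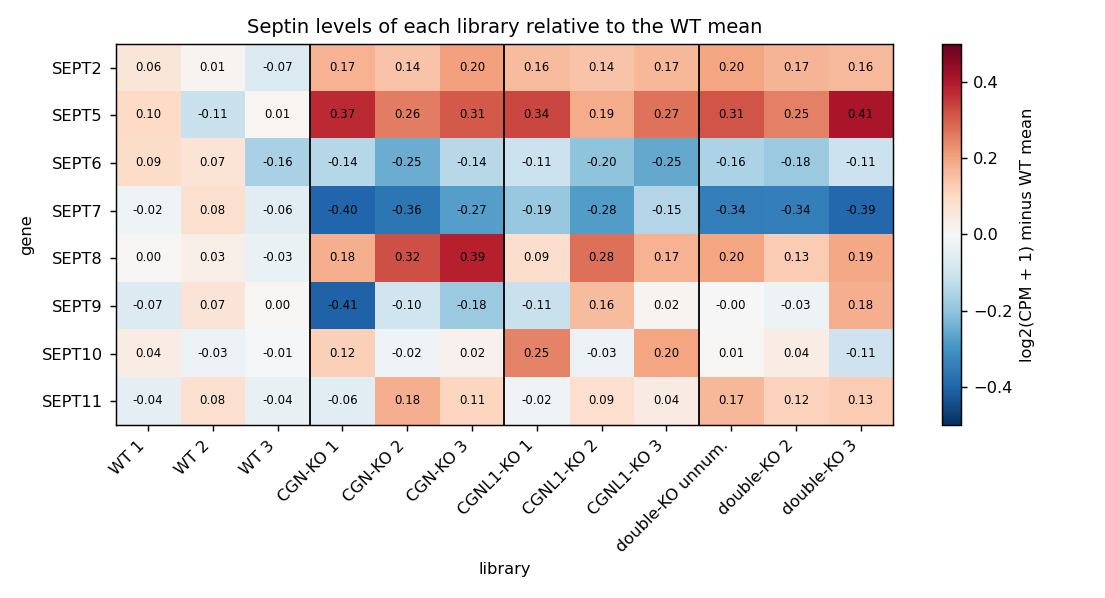
Level of each septin gene (rows) in each of the 12 libraries (columns), as log2(CPM + 1) minus the mean of the WT libraries; red is above and blue below the WT mean. SEPT7 is between -0.40 and -0.15 in the 9 KO libraries, and SEPT5 between 0.19 and 0.41, whereas SEPT6 is at -0.16 in WT replicate 3, as low as in the KO libraries.

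By count, 4 of the 8 septins were called in CGN-KO cells (3 higher and 1 lower), where 19.0% of all genes tested were called (11.2% higher and 7.87% lower). In CGNL1-KO cells 2 septins were called (1 higher and 1 lower), against 10.3% of all genes (6.81% higher and 3.49% lower). In double-KO cells 4 were called (3 higher and 1 lower), against 26.3% of all genes (14.8% higher and 11.5% lower). The 3 comparisons share the same WT libraries, and their counts are therefore not independent of one another. At an unadjusted p below 0.05 limma gave 6, 5, and 5 septins. The share of all genes at this unadjusted threshold is not given here for any comparison, so such counts cannot be set against it. edgeR on the recovered reads called the same genes as limma, and DESeq2 added SEPT2 in CGNL1-KO cells. The median size of the log2 difference over the 8 septins was 0.20, 0.17, and 0.16 in CGN-KO, CGNL1-KO, and double-KO cells, beside 0.12, 0.095, and 0.14 over all genes tested. At 2-fold and an adjusted p below 0.05, 0 septins were called by limma, edgeR, or DESeq2 in each of the 3 comparisons, and 0 at 2-fold and an unadjusted p below 0.05. Of all genes 1.31%, 0.617%, and 1.41% were called at 2-fold by limma. All 9 KO libraries lay above or below all WT libraries for 4 of the 8 septins, and for 12.6% of all genes. They lay above for 3 septins and 7.22% of all genes, and below for 1 septin and 5.41% of all genes. Across the 4 genotypes, the moderated F test called 5 septins (SEPT2, SEPT5, SEPT7, SEPT8, and SEPT9), against 29.9% of all genes, with adjusted p from 0.000312 (SEPT7) to 0.0473 (SEPT9). edgeR called 4 of them and did not call SEPT9.

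The KO lines were also compared with each other. Between CGN-KO and CGNL1-KO cells limma called 0 septins, against 5.19% of all genes, and 2 had an unadjusted p below 0.05 (SEPT7 at -0.14 and SEPT9 at -0.25, CGN-KO minus CGNL1-KO, adjusted p = 0.185 and 0.102). edgeR and DESeq2 also called 0. Same-numbered libraries of these lines deviated together from their group means, and with the replicate number as a block and only these genotypes in the fit both SEPT7 and SEPT9 were called (limma adjusted p = 0.0247 and 0.000148). With the block over the 11 numbered libraries SEPT9 alone was called (limma adjusted p = 0.00902), as it was with no block and without CGNL1-KO replicate 1 (adjusted p = 0.0247). The share of 5.19% is from the fit without a block. The shares of all genes called in the fits with a block are not given here. In each same-numbered pair SEPT9 was lower in CGN-KO cells, at 115 against 141, 142 against 170, and 134 against 154 CPM. Between double-KO and CGN-KO cells limma called SEPT9, which was 0.28 higher in double-KO cells (SE 0.0825, adjusted p = 0.0438), and 8.84% of all genes were called. This call was lost in 9 of 20 alternatives, including those without CGN-KO replicate 1 or 3 and without each double-KO library (highest adjusted p = 0.200). Between double-KO and CGNL1-KO cells limma called 0 septins, against 14.4% of all genes, with SEPT7 at -0.15 and SEPT10 at -0.16 at an unadjusted p below 0.05 (adjusted p = 0.0723 and 0.136). edgeR called 0, and DESeq2 called SEPT7.

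Whether the difference of the double-KO line equals the sum of those of the single-KO lines was tested with an interaction term. This term was called for 1 septin, SEPT8, and for 10.3% of all genes. For SEPT8 the differences of 0.30 and 0.18 in the single-KO lines stood beside 0.17 in the double-KO line, and the interaction was -0.31 (SE 0.0857, limma adjusted p = 0.0314). The call was lost in 9 of 19 alternatives (highest adjusted p = 0.0879), all of them ones that leave out a library. For SEPT7 the single-KO differences of -0.34 and -0.21 stood beside -0.36 in double-KO cells, and the interaction of 0.19 (95% interval 0.027 to 0.35) had a limma adjusted p of 0.134. For SEPT5 the interaction was -0.25 (95% interval -0.46 to -0.042), with a limma adjusted p of 0.125.

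The summed level of the 8 septins was 1207 ± 35.6 CPM for WT, 1233 ± 32.5 CPM for CGN-KO, 1262 ± 12.1 CPM for CGNL1-KO, and 1241 ± 10.7 CPM for double-KO cells (SD, n = 3). The WT libraries were between 1166 and 1233 CPM, the CGNL1-KO libraries lay above them (1254 to 1276 CPM), and the other two KO lines overlapped them. Within this sum, SEPT7 took 18.8 ± 0.592% of the septin reads in WT cells. Its share was 14.4 ± 0.264%, 15.5 ± 0.639%, and 14.2 ± 0.355% in CGN-KO, CGNL1-KO, and double-KO cells. SEPT2 took 34.8 ± 0.863% in WT cells and 38.5 ± 0.829%, 37.1 ± 0.231%, and 38.3 ± 0.441% in the same 3 KO lines. By class, the summed SEPT2 class was at 433 to 473 CPM in WT cells and at 502 to 525 CPM in the KO libraries. The summed SEPT6 class was at 363 to 381 CPM in WT cells and at 386 to 421 CPM in the KO libraries. These sums were not tested and largely restate single genes. In WT cells SEPT2 had a mean of 421 CPM, beside 454 CPM for its class. Of the SEPT6 class only SEPT8 was called against WT cells, and SEPT6 had lower means in the KO lines. Within the SEPT6 class the share of SEPT6 was between 12.8% and 14.6% in WT cells, and between 10.7% and 12.5% in the KO libraries. This share also depends on the other members. The mean share of SEPT8 was 39.4% in WT cells and 44.5%, 41.6%, and 42.7% in CGN-KO, CGNL1-KO, and double-KO cells. The level of SEPT6 itself was called in no line. CPM are not divided by transcript length, so these shares compare genotypes and do not rank the septins by abundance.

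A ratio of septins within 1 library does not depend on the scaling between libraries. The ratios were chosen after the levels were seen and are given as a description. The ratio of SEPT2 to SEPT7 reads was 1.86 ± 0.0971 in WT, 2.67 ± 0.0855 for CGN-KO, and 2.39 ± 0.0940 for CGNL1-KO cells (SD, n = 3), and between 2.65 and 2.73 in double-KO cells. The ratio of SEPT5 to SEPT7 was 0.146 ± 0.0167 in WT cells and 0.232 ± 0.0166, 0.203 ± 0.00784, and 0.236 ± 0.0178 in the same KO lines. The ratio of SEPT8 to SEPT7 was 0.653 ± 0.0198 in WT cells and 1.02 ± 0.0402, 0.856 ± 0.0920, and 0.945 ± 0.0395 in the KO lines. In each of these ratios all 9 KO libraries were above all 3 WT libraries, and CGNL1-KO cells had the KO mean closest to that of WT cells. This separation follows from the levels given above, where the KO libraries lay above WT for SEPT2, SEPT5, and SEPT8 and below it for SEPT7. The ratios are therefore no further support for those differences.

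**Figure D4:**
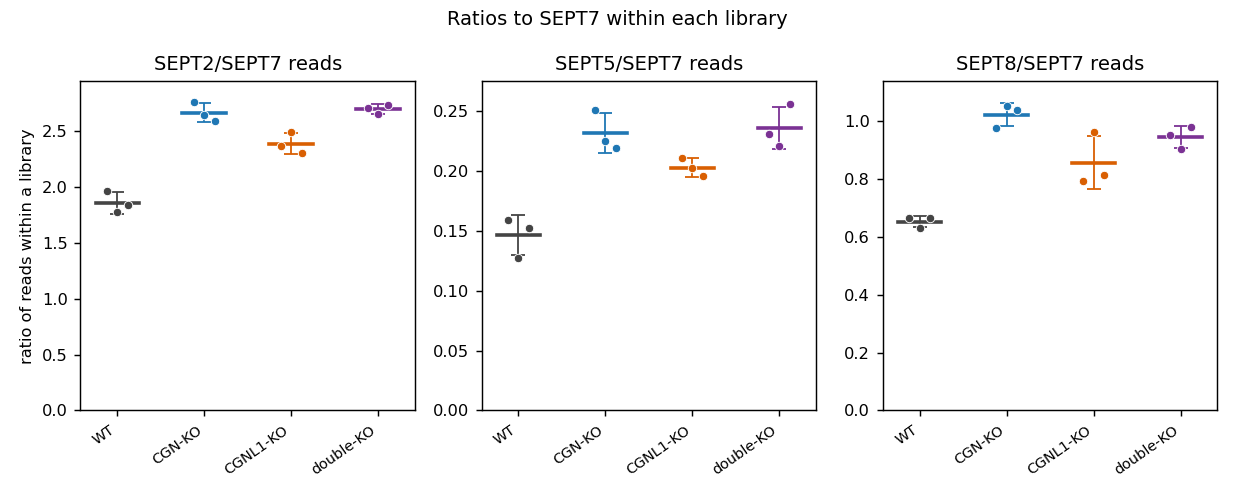
Ratio of SEPT2, SEPT5, and SEPT8 reads to SEPT7 reads within each library (y axes start at 0) by genotype. Points are libraries, and horizontal lines and bars are the mean and SD of 3 libraries. The WT libraries are lowest in each panel, with means of 1.86, 0.146, and 0.653.

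Genes of proteins that act with septins were listed in 4 groups. The lists were chosen with earlier results of these data known, so their counts beside the shares of all genes are a description. The Borg proteins are effectors of the GTPase Cdc42 that bind septins. Of 6 genes for Cdc42 and its Borg effectors 1 fell in the CGN-KO line, 1 in the CGNL1-KO line, and 2 in the double-KO line, and 0 rose, where 7.87%, 3.49%, and 11.5% of all genes tested were called lower. CDC42EP2 fell in all 3 lines, by 0.41, 0.48, and 0.38 (limma adjusted p = 0.00614, 0.00332, and 0.00751), from a mean of 15.9 CPM in WT cells, with the lowest KO mean of 11.1 CPM in CGNL1-KO cells. These calls of CDC42EP2 held in all 20 alternatives. CDC42 fell by 0.17 in double-KO cells (limma adjusted p = 0.0213), a call that was lost without WT replicate 1 or 3 or double-KO replicate 3 (highest adjusted p = 0.0952). CDC42EP4, not called in CGN-KO cells (0.18, limma adjusted p = 0.0752), was called there without CGNL1-KO replicate 1 or 2. The median difference of the group was between -0.01 and 0.04 in the 3 lines.

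Of 7 genes for anillin, which links septins to the contractile ring, and its partners in cytokinesis, limma and edgeR called 0 in the CGN-KO line and 0 in the CGNL1-KO line, with 2 genes at an unadjusted p below 0.05 in each, and DESeq2 called 1 in each, RHOA. Of all genes tested limma called 19.0% and 10.3% in these lines, and DESeq2 19.6% and 10.8%. In double-KO cells limma called 1 of the 7, RHOA, the GTPase that activates the ring, where 14.8% of all genes tested were called higher. RHOA rose by 0.15 (limma adjusted p = 0.0326), a call that was lost in 6 of 20 alternatives, including those without WT replicate 1 or 3 and without each double-KO library (highest adjusted p = 0.106). ANLN itself differed from WT cells by -0.15, -0.20, and -0.04 (limma adjusted p = 0.163, 0.110, and 0.728), and it was called in CGNL1-KO cells without CGN-KO replicate 1. Of 7 genes for nonmuscle myosin-2, a motor that binds septins, 6 were listed, and the same genes rose in each KO line, MYH14 and MYL9, where 11.2%, 6.81%, and 14.8% of all genes tested were called higher. MYH14, the heavy chain of nonmuscle myosin-2C, rose by 0.61, 0.39, and 0.46 (limma adjusted p = 0.000418, 0.0201, and 0.00306) from 86.1 CPM in WT cells. MYL9, a regulatory light chain, rose by 1.04, 0.90, and 1.67 (limma adjusted p = 1.45e-06, 1.32e-05, and 6.28e-09) from 11.2 CPM. The call of MYH14 in CGNL1-KO cells was lost without WT replicate 2 or 3 and with only these genotypes in the fit (highest adjusted p = 0.105), and the other calls of both genes held in all 20 alternatives. The other 4 listed genes, MYH9, MYH10, MYL6, and MYL12B, had adjusted p of 0.152 or more.

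Of 6 genes for adaptors and cytoskeletal partners of septins 2 fell in CGN-KO cells, 0 were called by limma, edgeR, or DESeq2 in CGNL1-KO cells (3 at an unadjusted p below 0.05), and 3 fell in double-KO cells, beside 7.87%, 3.49%, and 11.5% of all genes called lower. The adaptor SH3KBP1 fell by 0.32 in CGN-KO and by 0.22 in double-KO cells (limma adjusted p = 0.00453 and 0.0312). The adaptor NCK1 fell by 0.28 and 0.43 in these lines (limma adjusted p = 0.0395 and 0.00211), and SOCS7, which binds both NCK and septins, fell by 0.29 in double-KO cells (limma adjusted p = 0.0198). The calls of SH3KBP1 in CGN-KO and NCK1 in double-KO cells held in all 20 alternatives. NCK1 in CGN-KO cells lost its call in 7 of 20 (highest adjusted p = 0.154), SH3KBP1 in double-KO cells in 5 of 20 (highest adjusted p = 0.131), and SOCS7 in 4 of 20 (highest adjusted p = 0.0861), and the losing alternatives of all 3 include those without WT replicate 1 and without double-KO replicate 3. MAP4, a microtubule-binding protein, and ARHGEF18, which binds septins, were called in no line (adjusted p of 0.116 or more). In CGN-KO, CGNL1-KO, and double-KO cells in turn, the median differences were -0.12, -0.094, and -0.013 over the anillin group, 0.066, 0.098, and 0.14 over the myosin group, and -0.10, -0.15, and -0.14 over the adaptor group, beside -0.0039, -0.0031, and -0.00036 over all genes.

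The genes whose levels varied most like those of each septin were sought by Pearson's r over the 12 libraries. The search covered the 9009 other genes with a mean of at least 10 CPM and a symbol that does not start with LOC. These points share the genotype means and the scaling of each library, so the values are a description. For SEPT7 the closest were MYO6, an actin motor that moves toward the minus end (r = 0.971), and RAC1, a regulator of the actin cytoskeleton (r = 0.962). For SEPT2 they were POFUT1, which adds fucose to Notch receptors (r = 0.967), and the phosphatase MTMR4 (r = 0.966), and for SEPT5 the lysosomal protease CTSD (r = 0.950) and SHROOM4, an actin-binding protein (r = 0.949). For SEPT8 they were the sorting nexin SNX12 (r = 0.954) and the peptide gene EDN1 (r = 0.909), and for SEPT9 ASAP1, an Arf GTPase-activating protein (r = 0.950), and SRPX2 (r = 0.944). The closest genes of SEPT6 were SENP1 (r = 0.920) and CLOCK (r = 0.868), those of SEPT10 PLA2G7 (r = 0.925) and SLC41A3 (r = 0.923), and that of SEPT11 was PHLDB2 (r = 0.944).

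The nearest 5 tested genes on each side of a septin in the RefSeq gene order were set beside it, in CGN-KO, CGNL1-KO, and double-KO cells in turn. The 10 neighbours of SEPT7 had median differences from WT of -0.10, -0.09, and -0.13, beside -0.34, -0.21, and -0.36 for SEPT7. Those of SEPT5 had medians of -0.04, -0.05, and 0.00, beside 0.31, 0.26, and 0.32 for SEPT5. Those of SEPT2 had medians of 0.10, 0.06, and 0.11, beside 0.17, 0.16, and 0.18 for SEPT2, and HDLBP was 1 of them. Those of SEPT8 had medians of 0.02, -0.04, and -0.07, beside 0.30, 0.18, and 0.17 for SEPT8. SEPT2, SEPT5, SEPT7, and SEPT8 thus differed from WT cells by more than the median of their neighbours in each line, as a description without a test. They are the septins already called against WT cells, so this adds no support. In size, SEPT6 and SEPT9 also exceeded their neighbour medians in each line. SEPT10 did not in CGN-KO (0.04 beside -0.10) or double-KO cells (-0.02 beside -0.16), nor SEPT11 in CGNL1-KO cells (0.04 beside -0.06). In the same direction, single neighbours went beyond SEPT2 and SEPT8 in each line, beyond SEPT5 in CGN-KO cells, and beyond SEPT7 in double-KO cells. In the other direction the highest neighbour of SEPT7 was larger in size than SEPT7 in each line, at 0.53, 0.49, and 0.95. In double-KO cells the lowest neighbour of SEPT7 was at -0.48 and the highest neighbour of SEPT8 at 0.43.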

How the data were processed

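mRNA levels were measured in 12 RNASeq libraries of untreated MDCKII cells, 3 per genotype. Per the study's methods, stranded mRNA libraries were sequenced as single reads, and the submitters' processing notes name STAR 2.7.0f, HTSeq 0.9.1, and the CanFam3.1 genome. The annotation release and the strand setting of the counting are not given in the sources used here. The authors deposited a normalized signal, reads per gene divided by the library total times a TMM factor and given per 1000000 (CPM). The deposited values were multiples of what a single read is worth (100% of values within 0.01 of a whole number), so read counts were recovered, and TMM factors recomputed from them differed from the deposited scaling by at most 3.53e-06. The recovered totals cover the 13672 listed genes only.

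Levels were compared with limma 3.58.1 in R 4.3.3 (lmFit, trended eBayes) on log2(CPM + 1), with no replicate block and with the 4 genotypes fitted together, over the 12650 genes that exceeded 1 CPM in 3 or more libraries. A pseudocount of 1 makes fold changes of low genes appear smaller. Benjamini-Hochberg adjusted p below 0.05 were called. Alternatives were edgeR 4.0.16 (quasi-likelihood test) and DESeq2 1.42.0 on the recovered reads, pseudocounts of 0.5 and 5, no filter on low values, scaling by library totals, the replicate number as a block (11 libraries, as 1 double-KO column has no number), only the genotypes compared, and leaving out each library. Between the CGN-KO and CGNL1-KO lines, libraries with the same number deviated together from the mean of their genotype in all 3 pairs (r over genes of 0.632, 0.475, and 0.179), and this pairing comes from the data, since the labels do not say what a number marks. For WT with CGN-KO cells r was 0.373 and 0.318 for replicates 1 and 2, and for WT with CGNL1-KO cells 0.329 and 0.371. For WT with either single-KO line the third pair was below 0.1 (-0.0822 and 0.0110). For the double-KO line, r for replicates 2 and 3 was -0.152 and 0.0859 with WT cells. It was -0.233 and -0.123 with CGN-KO cells, and -0.235 and -0.124 with CGNL1-KO cells. The block thus assumes a pairing that was not seen for the double-KO line. The steps were tested on simulated data.

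The genes named are the 8 septins, the genes targeted in the KO lines, 4 lists of septin-related genes, marker lists, 2 genes most like each septin (1 of them is not reported here), and 5 neighbours on each side. The septins and lists were chosen with earlier results of these data known. Gene order came from RefSeq genes of UU_Cfam_GSD_1.0, matched by symbol (11756 of 12650 genes tested, 92.9%). As this is another build, no coordinates are given, and no sequence table was used here. MYL12A has no row under its symbol. Replicates were compared by chi-square over genes, and no libraries of a genotype were identical (chi-square per degree of freedom of 2.45 to 22.4).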

Additional observations from a re-analysis of the deposited data

Results flagged for a closer look

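For SEPT8 limma called the interaction, at -0.31 (adjusted p = 0.0314), where 10.3% of all genes were called. This call was lost in 9 of 19 alternatives. The level of SEPT8 was above that of WT cells in 3 of 3 double-KO libraries, 3 of 3 CGN-KO libraries, and 3 of 3 CGNL1-KO libraries. All KO libraries lay above all WT libraries for 7.22% of all genes.

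SEPT9 differed between the double-KO and CGN-KO lines by 0.28 (double-KO minus CGN-KO, limma adjusted p = 0.0438), with 3 of 3 double-KO libraries above all CGN-KO libraries. Of all genes 8.84% were called between these lines, and the double-KO libraries lay above for 15.5%. The SEPT9 call was lost in 9 of 20 alternatives. Loss of CGN is common to these lines, and each genotype is 1 line, so the added loss of CGNL1 and the line itself cannot be told apart.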

How the results depend on the processing

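Of the log2 differences of septins under the alternatives, 1028 kept their direction and their side of the threshold, 41 lost a call, 22 gained one, and 29 changed sign, all of the last from differences that were not called. The number of septins called between CGNL1-KO and WT cells (2) was 1 when scaled by library totals, 4 with the replicate block, and 0 with only the genotypes compared, and ranged from 0 (without WT replicate 2) to 3 when 1 library was left out. Between CGN-KO and CGNL1-KO cells (0) it was 1 with the replicate block, 2 with the block and only these genotypes, and 0 to 1 without 1 library. Between double-KO and CGN-KO cells (1) it was 0 when scaled by library totals and 0 to 1 without 1 library, and between double-KO and CGNL1-KO cells (0) it was 1 by DESeq2 and 0 to 2 without 1 library. The interaction call (1) ranged from 0 to 1 and the F test (5) from 2 (without WT replicate 2) to 6 without 1 library. For the replicate block, the shares of all genes called are not given here. Under scaling by library totals, SEPT9 in CGNL1-KO against WT cells was -0.0118, SEPT2 in double-KO against CGN-KO cells -0.00716, and SEPT8 in double-KO against CGNL1-KO cells 0.027. With the replicate block, SEPT10 in double-KO against WT cells was 0.00337, SEPT9 in double-KO against CGNL1-KO cells -0.00585, and the SEPT11 interaction -0.0309. This block leaves out the unnumbered double-KO library, and no same-numbered pair with the double-KO line had an r of 0.1 or more. The replicate block also ended the call of SEPT8 in double-KO cells (0.12, adjusted p = 0.141) and gave a call of SEPT9 in CGN-KO cells against WT (adjusted p = 0.00678), of SEPT2 and SEPT8 in CGNL1-KO cells (adjusted p = 0.0402 and 0.0272), of ANLN in CGN-KO and CGNL1-KO cells, of NCK1 in CGNL1-KO cells, and of KIF23 and CDC42EP4 in CGN-KO cells. Without 1 library, differences from WT ranged from -0.048 to 0.086 (SEPT9, CGNL1-KO), -0.013 to 0.090 (SEPT9, double-KO), and -0.050 to 0.021 (SEPT10, double-KO). Between CGN-KO and CGNL1-KO cells they ranged from -0.021 to 0.053 (SEPT6) and -0.013 to 0.11 (SEPT11). Between double-KO and CGN-KO cells they ranged from -0.012 to 0.019 (SEPT2), -0.029 to 0.047 (SEPT5), -0.011 to 0.043 (SEPT6), -0.040 to 0.021 (SEPT7), and -0.0080 to 0.11 (SEPT11). Between double-KO and CGNL1-KO cells they ranged from -0.053 to 0.041 (SEPT8) and -0.035 to 0.099 (SEPT9), and the SEPT11 interaction ranged from -0.045 to 0.075. The cause of these changes was not tested. Of the counts over the septin-related lists, 209 stayed within 1.5 times and 31 did not. With 552 to 14371 reads per septin and library, the counting error was 0.834% to 4.26%, beside a median spread of 4.87% between libraries.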
